A study of Mus musculus with 3 samples.

Results

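Marco Cd209b Pla2g2d macrophages were defined here as single-cell barcodes with at least 500 detected genes, at most 15% mitochondrial UMIs, at least 3 UMIs of C1qa, C1qb and C1qc together and at least 2 UMIs of Marco, Cd209b and Pla2g2d together. A UMI, a unique molecular identifier, marks 1 captured RNA molecule. The rule found 364 such cells among 16838 barcodes that passed the gene and mitochondrial limits, out of 20667 barcodes in all. It used measured counts of the genes it names, so their levels in the cells describe the choice and are not findings. The cells came from stromal vascular preparations of inguinal white fat, that is, what remains of the fat pad after digestion and removal of floating adipocytes.

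Each of the 3 libraries stood for 1 condition in C57BL/6 mice: a saline control, exposure to cold at 4 C for 3 days, or 3 days of intraperitoneal CL 316,243, an agonist of the beta3-adrenergic receptor, at 1 mg/kg (CL below). No engineered allele is named in the labels, and the sources used here do not state the age and sex of the mice, how many a library pools, and whether those kept in the cold had injections. The question put to the data was whether the cells carry the genes of lymph node macrophages or those of resident fat macrophages, and how they differ between the 3 libraries. With 1 library per condition no test was possible and no p-value is given. Intervals in parentheses are 95% intervals for counting error alone, and animal, preparation and treatment cannot be told apart.

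MARCO is a scavenger receptor with a collagen-like stalk that binds bacteria and particles, CD209B (SIGN-R1) is a C-type lectin that binds microbial and host sugars, and PLA2G2D is a secreted phospholipase A2 of lymphoid tissue dendritic cells and macrophages. Marco and Cd209b are best known from macrophages of the splenic marginal zone and of lymph node sinuses and medulla, which take up material from blood and lymph. Resident macrophages along the vessels of fat are known for Cd163, Lyve1, Mrc1 and Folr2, which encode scavenger, hyaluronan, mannose and folate receptors. The inguinal fat pad also holds a lymph node, and whether it was taken out before digestion is not stated in the sources used here.

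The promoters of the rule genes are shown because these genes choose the cells. Marco (ENSMUSG00000026390) lies at chr1:120474538-120505024 on the minus strand, Cd209b (ENSMUSG00000065987) at chr8:3917655-3926844 on the minus strand and Pla2g2d (ENSMUSG00000041202) at chr4:138775735-138782046 on the plus strand. The sequences are the bases before each start in RefSeq on GRCm38.p6, the assembly of the mm10 build, written 5′ to 3′ on the gene's strand. Bases that the GENCODE annotation gives as exon were cut off, here and in the next paragraph. Capitals mark GAGGAA, the core letters of many sites of the myeloid factor PU.1, searched on both strands (TTCCTC on the other). The motif has 1 match in the Marco stretch and none in the other two, and 23.3% of 32851 promoters hold it in the 250 bases before their start, so its presence is a description.
Marco: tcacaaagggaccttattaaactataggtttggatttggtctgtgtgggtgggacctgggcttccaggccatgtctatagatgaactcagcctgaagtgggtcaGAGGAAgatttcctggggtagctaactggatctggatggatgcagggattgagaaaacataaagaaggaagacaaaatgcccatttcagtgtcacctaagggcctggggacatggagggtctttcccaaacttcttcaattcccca
Cd209b: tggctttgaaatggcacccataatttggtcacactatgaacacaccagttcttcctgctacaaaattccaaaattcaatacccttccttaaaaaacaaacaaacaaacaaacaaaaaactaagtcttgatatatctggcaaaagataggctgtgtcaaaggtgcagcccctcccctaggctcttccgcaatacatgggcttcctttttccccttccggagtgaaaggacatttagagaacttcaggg
Pla2g2d: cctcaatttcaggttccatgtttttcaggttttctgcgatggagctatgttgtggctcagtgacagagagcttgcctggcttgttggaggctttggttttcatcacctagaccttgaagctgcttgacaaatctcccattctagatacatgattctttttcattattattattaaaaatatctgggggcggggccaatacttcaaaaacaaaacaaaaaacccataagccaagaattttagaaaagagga

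Cd209f and Cd209g, lectin genes of the same cluster on chromosome 8 as Cd209b that were high in the same cells, are shown because their starts are near copies. Capitals mark the bases of the run that both promoters share, 180 bases long in the full windows, of which 83 and 84 lie in the stretches shown. The Cd209g stretch, chr8:4134486-4134651, lies inside the GENCODE gene, which begins at 4134098 on the plus strand. The next longest run shared by any pair of Cd209 promoters was 17 bases, in Cd209a and Cd209b. Their 3′ ends, which the assay counts, differ: of the 31-base words in the last 600 bases of their transcripts, Cd209f shared 0.173% with Cd209g, and no other pair of Cd209 genes shared any.
Cd209f: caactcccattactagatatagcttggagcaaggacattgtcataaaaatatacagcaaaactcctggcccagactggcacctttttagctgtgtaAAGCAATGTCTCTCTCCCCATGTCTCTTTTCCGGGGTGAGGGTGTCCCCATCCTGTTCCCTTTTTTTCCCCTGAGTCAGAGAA
Cd209g: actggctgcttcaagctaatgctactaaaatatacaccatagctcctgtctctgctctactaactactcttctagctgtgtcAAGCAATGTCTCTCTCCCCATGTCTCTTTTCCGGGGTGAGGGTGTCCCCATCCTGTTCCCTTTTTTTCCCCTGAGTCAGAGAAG

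The cells numbered 209 of 6271 kept barcodes in the saline library (3.33%, 2.90 to 3.81, exact Clopper-Pearson), 66 of 3862 in the cold library (1.71%, 1.32 to 2.17) and 89 of 6705 in the CL library (1.33%, 1.07 to 1.63). The log2 ratio of the share was -0.96 (-1.36 to -0.57) for cold over saline and -1.33 (-1.68 to -0.97) for CL over saline. For CL over cold it was -0.36 (-0.82 to 0.09), which includes no difference. Among barcodes with at least 3 C1q UMIs the order was another one, at 22.5% of 927 in saline, 28.8% of 229 in cold and 4.33% of 2054 in CL. A smaller share of the barcodes and fewer UMIs of the rule genes per cell cannot be told apart by a rule on UMIs. With every barcode thinned to 2000 UMIs, and 1832, 506 and 1090 shallower barcodes left out, the shares were 2.75%, 1.25% and 0.926%.

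The rule genes were spread unevenly over the cells. In the saline library Marco had 269 UMIs in 21 cells, Cd209b 786 UMIs in 163 cells and Pla2g2d 363 UMIs in 95 cells. In the cold library the counts were 396 UMIs of Marco in 14 cells, 818 of Cd209b in 53 and 165 of Pla2g2d in 34. In the CL library they were 501 UMIs of Marco in 60 cells, 83 of Cd209b in 27 and 33 of Pla2g2d in 13. Most saline and cold cells were thus chosen through Cd209b and most CL cells through Marco. At the edge of the rule, 75, 16 and 19 cells of the saline, cold and CL libraries had exactly 2 UMIs of the rule genes, and 134, 30 and 52 C1q-positive barcodes just outside it had 1. Cd163 was at 773, 1157 and 400 CPM (UMIs of a gene per 1000000 UMIs summed over the cells) in the cells with 2 such UMIs, against 963, 705 and 259 CPM in those with 1. Timd4 was at 127, 177 and 133 CPM with 2 UMIs and at 384, 1102 and 161 CPM with 3 or more.

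The proposed label rested on Marco, Cd209b, Pla2g2d, Mmp12 and Dnase1l3, and 1 of the markers the rule had not used went against it. Mmp12, a macrophage elastase, had 2 UMIs in all 364 cells, both in the saline library, against 115, 260 and 36 UMIs in the other C1q-positive macrophages of the saline, cold and CL libraries. Dnase1l3, a secreted nuclease, was detected in 13.4%, 18.2% and 5.62% of the cells. These UMIs sat mainly in cells chosen through Pla2g2d alone, described below. The name of 3 genes is therefore kept as the rule that chose the cells, since they did not form 1 uniform population.

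General macrophage genes were widely detected. Csf1r, the receptor for the macrophage growth factor CSF1, was found in 87.6%, 90.9% and 77.5% of the cells, and Adgre1, which encodes F4/80, in 56.0%, 72.7% and 87.6%. In barcodes with B cell markers and no C1q UMI, a measure of free RNA, these shares were 1.62%, 0.603% and 4.27% for Csf1r and 0.747%, 0.737% and 5.56% for Adgre1. The cells had a median of 3110, 4209 and 4073 UMIs in the saline, cold and CL libraries, and the B cell barcodes 1737, 2556 and 1679. Barcodes with B cell markers made up 28.0%, 40.1% and 3.92% of the kept barcodes, so the libraries differed widely in lymphocyte content. No pair of libraries shared a barcode among the chosen cells, and Scrublet called 6, 0 and 1 of them doublets. In the cold library it called 0.104% of all kept barcodes, too few for the caller to have worked, and doublets remain there. In saline and CL it called 1.39% and 0.820% of kept barcodes, so doublets may remain there too. At least 3 UMIs of B cell, T cell, fat progenitor and blood endothelial markers together were found in 26, 10 and 9 of the cells. Outside these 4 lists, erythroid markers reached 3 UMIs in 53, 46 and 13 of the cells (25.4%, 69.7% and 14.6%), against 26.2%, 63.2% and 14.8% of the other C1q-positive macrophages. Type 2 dendritic cell markers, a list that holds Cd209a of the Cd209 cluster, did so in 78, 31 and 13 of the cells.

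By the rule genes detected, the cells fell into 4 sets, formed after the values were seen. Cells with Cd209b and no Marco made up 150, 41 and 20 cells of the saline, cold and CL libraries. Cells with both Marco and Cd209b made up 13, 12 and 7. Cells with Pla2g2d alone made up 38, 11 and 9, and cells with Marco alone 6, 1 and 52. The remaining 4 cells had Marco and Pla2g2d. Sets are named below by these genes, and a rule gene at 0 in a set is so by construction. As shares of kept barcodes, Cd209b+ Marco- cells went from 2.39% (2.03 to 2.80) in saline to 1.06% (0.763 to 1.44) in cold and 0.298% (0.182 to 0.460) in CL. Marco-only cells showed the opposite order for CL, at 0.0957% (0.0351 to 0.208) in saline and 0.776% (0.580 to 1.02) in CL. The log2 ratio of CL over saline was -3.00 (-3.67 to -2.33) for the Cd209b+ Marco- set and 3.02 (1.80 to 4.24) for the Marco-only set. Cells with and without Marco differed at least 2-fold in all 3 libraries in 42 of 2085 genes (2.01%). The share of Marco+ Cd209b+ cells differed by less than its counting error between cold and saline, with a log2 ratio of 0.58 (-0.55 to 1.71).

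**Figure D1:**
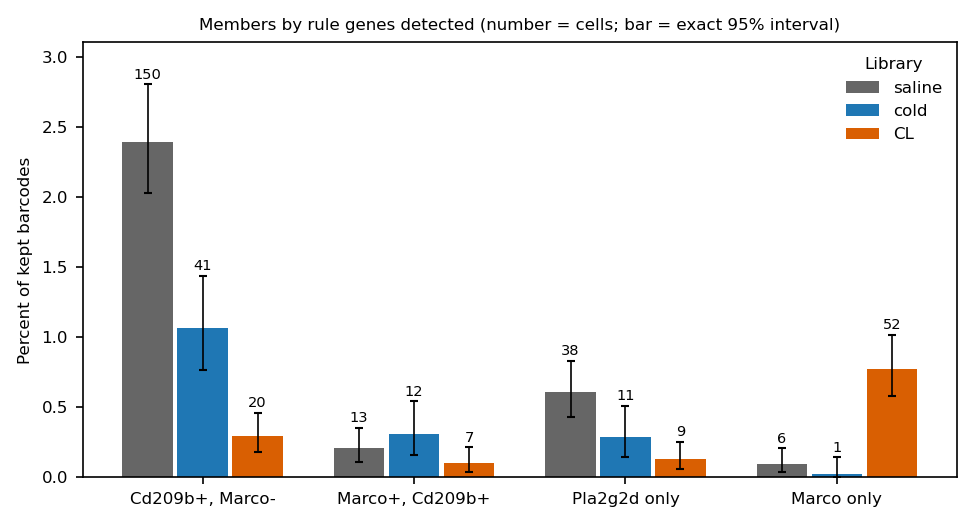
Bars give each set of cells, by the rule genes detected, as a percent of the kept barcodes of the saline, cold and CL libraries, with exact 95% intervals and the number of cells above each bar. Cd209b+ Marco- cells were 150, 41 and 20 of the 3 libraries, while Marco-only cells were 6, 1 and 52.

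Set against the other C1q-positive macrophages with no UMI of a rule gene (584, 133 and 1913 cells), the cells had more RNA of resident perivascular macrophage genes and less of monocyte genes. All 15 genes of the perivascular list were higher in each library, with median log2 ratios of 0.81 in saline, 0.41 in cold and 2.14 in CL. Of the measured monocyte genes 9 of 10, 5 of 7 and 10 of 10 were lower, with medians of -3.66, -1.88 and -2.02. Genes of antigen presentation by MHC class II were lower in 11 of 12, 8 of 9 and 9 of 9 cases, with medians of -0.70, -0.95 and -1.26. The median over all measured genes lay between -0.06 and 0.03 here, and between -0.23 and 0.12 in the comparisons of lists that follow. Of 5394 genes with at least 20 UMIs in each library, 32 (0.593%) were at least 2-fold higher in all 3 libraries and 34 (0.63%) at least 2-fold lower, each with an interval that excludes 0. Because the rule chose the cells on genes of this contrast, these counts describe the cells and are not a test.

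Timd4, a receptor for phosphatidylserine on dying cells, was at 307, 928 and 155 CPM in the saline, cold and CL cells and at 54.1, 33.4 and 17.8 CPM in the others, with log2 ratios of 2.50 (2.17 to 2.84), 4.79 (4.16 to 5.51) and 3.13 (2.67 to 3.57). It was detected in 34.9%, 50% and 34.8% of the cells, and had 4 UMIs in the B cell barcodes of saline and none in those of cold and CL. Vcam1, an adhesion molecule of sinus macrophages and endothelium, was at 309, 456 and 28.0 CPM against 39.1, 46.2 and 8.01 CPM. Vcam1 reached 15.3%, 24.2% and 10.1% of the cells, so a minority carried it. Ccl8, a chemokine of resident macrophages, was at 2740, 6022 and 1505 CPM against 858, 1089 and 322 CPM, and was detected in 83.7%, 84.8% and 70.8% of the cells. The log2 ratios of Vcam1 were 2.98, 3.30 and 1.81, and those of Siglech, described below with the cells that carried it, 2.59, 4.29 and 2.42. Other lectins of the Cd209 cluster on chromosome 8 were also higher: the log2 ratios of Cd209d were 1.81, 1.23 and 4.60, and those of Cd209f 1.47, 1.04 and 4.17. Those of Cd209g were 1.22, 1.22 and 4.33 and those of Cd209a 1.93, 1.46 and 3.41. All 4 were higher in each library, and the ratios were largest in CL, where the comparison cells had little of these lectins.

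Complement genes were among the higher ones, with 8 of 12, 10 of 12 and 9 of 10 measured members higher and medians of 0.61, 0.77 and 0.89. C4b, an early component of the classical pathway, was at 690, 749 and 494 CPM against 337, 373 and 60.8 CPM. C6, a component of the membrane attack complex, was at 157, 199 and 66.2 CPM against 44.0, 74.8 and 4.13 CPM. On the other side, Ccr2, the chemokine receptor of recruited monocytes, was at 15.9, 15.1 and 45.8 CPM against 514, 193 and 655 CPM, with log2 ratios of -5.01 (-5.97 to -4.20), -3.67 (-5.32 to -2.41) and -3.84 (-4.59 to -3.17). Spp1, osteopontin of lipid-associated macrophages, had 0, 0 and 3 UMIs against 184, 28 and 1580. Il1b, the inflammatory cytokine, was at 35.8, 45.3 and 115 CPM against 193, 170 and 638 CPM. Ccr2 was detected in 4.31%, 3.03% and 12.4% of the cells, against 46.4%, 29.3% and 68.6% of the others. Of 12 general macrophage genes 3, 5 and 5 were higher, with medians of -0.35, -0.04 and -0.29.

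The difference was much smaller against cells picked to resemble perivascular macrophages. These were the other C1q-positive macrophages with at least 3 UMIs of Lyve1, Cd163 and Folr2 together (263, 88 and 291 cells), a comparison added after the first one was seen. Of 4516 genes, 1 (0.0221%) was higher in all 3 libraries, Cxcl9, and 3 (0.0664%) were lower: Ccr2, Lat2 and Dusp5. The perivascular list came out even in saline and cold, with 6 and 7 of 15 genes higher and medians of -0.04 and -0.02, and higher in CL, with 15 of 15 and a median of 0.54. The comparison cells were chosen on 3 of these 15 genes. Genes of lymph node sinus and splenic marginal zone macrophages were higher in 7 of 9 cases in saline and 6 of 8 in cold, with medians of 1.06 and 1.65, but in 4 of 7 in CL with a median of 0.01.

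**Figure D2:**
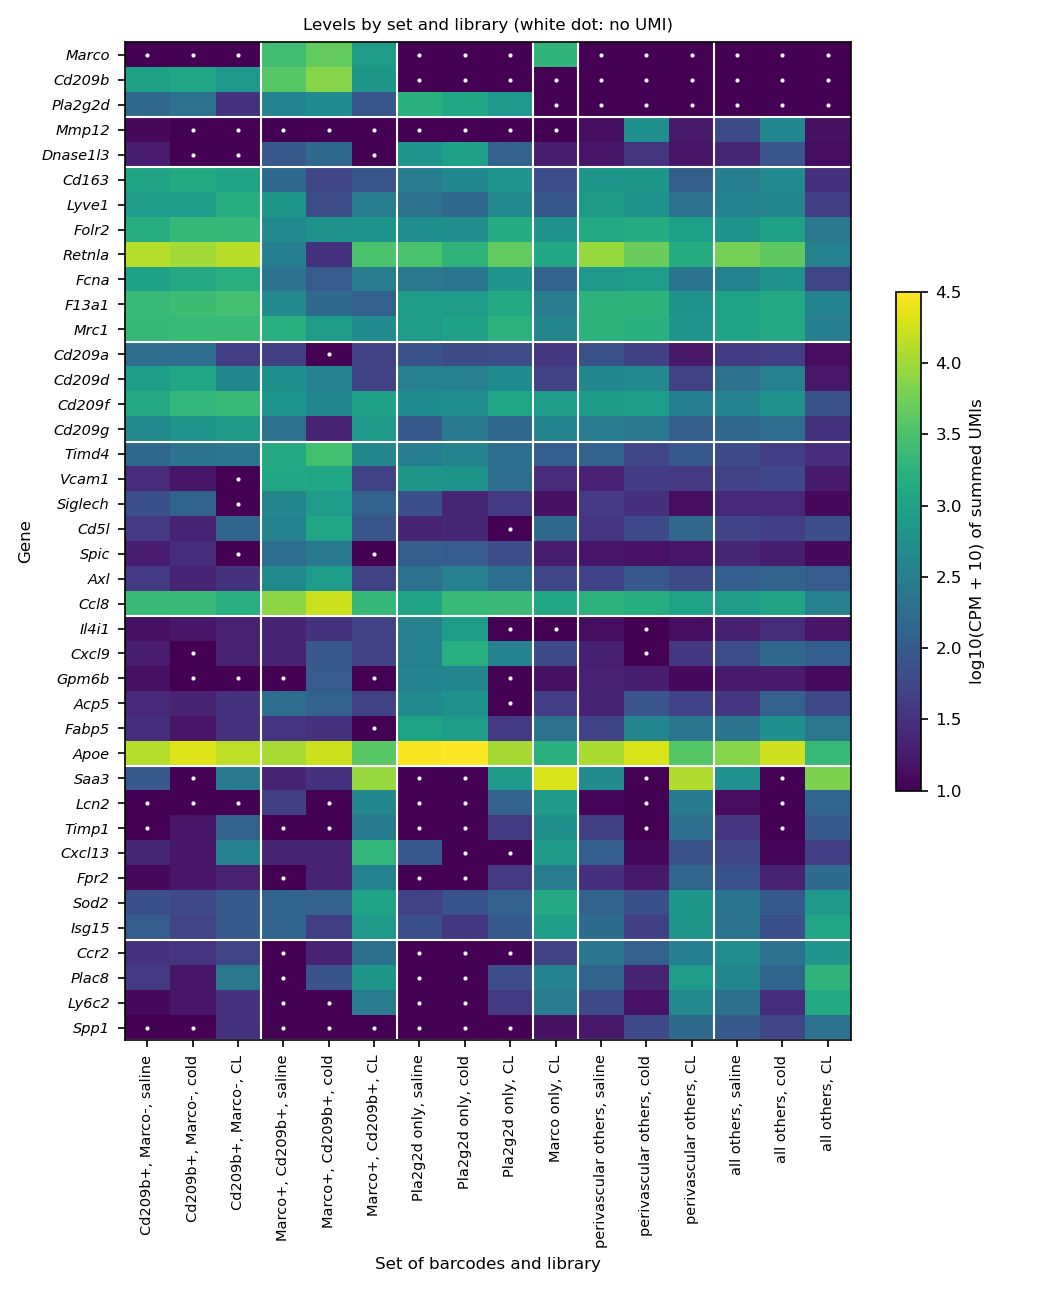
Colour gives the log10 of CPM plus 10 for genes (rows) in each set and library (columns), from summed UMIs, with a white dot where no UMI was found; Marco-only cells are shown for CL, where they numbered 52. Perivascular genes such as Cd163 and Retnla run through the Cd209b+ Marco- columns, high Timd4 marks the Marco+ Cd209b+ columns of saline and cold, Dnase1l3 and Il4i1 the Pla2g2d-only columns, and Saa3 the Marco-only column.

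Cd209b+ Marco- cells, the largest set with 211 cells, carried perivascular macrophage genes at high levels in every library. Cd163 was at 1114, 1310 and 1016 CPM in the saline, cold and CL libraries, against 687, 702 and 106 CPM in the perivascular comparison cells. Lyve1 was at 813, 812 and 1506 CPM, against 804, 590 and 195 CPM. Retnla, which encodes the secreted protein RELM-alpha of alternatively activated macrophages, was at 12990, 10222 and 13246 CPM, against 9023, 4936 and 1464 CPM. Levels of these 3 genes in the set stayed within 2-fold of each other across the libraries, while those of the comparison cells were far lower in CL. The perivascular list was higher than in the comparison cells for 14, 14 and 15 of 15 genes, with medians of 0.28, 0.50 and 1.39. Against the remaining chosen cells of each library, 37 of 2085 genes (1.77%) were higher and 31 (1.49%) lower throughout. Against the comparison cells, of 3634 genes, 1 (0.0275%) was higher in all libraries, Cd209d with log2 ratios of 1.06, 1.35 and 3.44, and 19 (0.523%) were lower. Among the lower ones were Ccr2 at -3.40, -2.15 and -2.79, Cd52, a small glycoprotein of leukocytes, at -2.67, -2.69 and -3.02, and Fabp5, a fatty acid carrier, at -1.17, -5.94 and -3.34. Lgals3, galectin-3, was at -1.27, -2.96 and -1.32 and S100a4, a calcium-binding protein of motile cells, at -1.40, -1.50 and -1.43. In cold and CL, Fabp5 had 1 and 2 UMIs in the set. Vcam1 and Spic were at or near 0, with Vcam1 at 16.9, 6.15 and 0 CPM and Spic at 8.47, 18.5 and 0 CPM. Timd4 was present at 140, 209 and 223 CPM, in 49, 17 and 9 cells.

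Marco+ Cd209b+ cells, 32 in all, stood apart in the saline and cold libraries through several genes of resident macrophages in other organs. Of those given here, Vcam1, Cd5l and Spic are on the sinus and marginal zone list. Timd4, Cd5l and Slc40a1 are on the list of Kupffer cells, the macrophages of the liver. Timd4 was at 1322 and 2759 CPM, in 11 of 13 and 11 of 12 cells. Vcam1 was at 1237 and 1156 CPM, in 8 cells of each library. Cd5l, a secreted lipid-binding protein of tissue macrophages, was at 355 and 1156 CPM, in 9 and 6 cells. Spic, which encodes the transcription factor of splenic red pulp macrophages, was at 171 and 252 CPM, and Slc40a1, the iron exporter ferroportin, at 257 and 389 CPM. Siglech, a sialic acid-binding lectin known from plasmacytoid dendritic cells and marginal zone macrophages, was at 380 and 824 CPM. Ccl8 reached 7689 and 16463 CPM, the highest of the 4 sets in both libraries. Cd163 was low at 147 and 45.8 CPM, and Retnla was at 318 and 22.9 CPM. Both libraries showed the same picture, with high Timd4, Vcam1 and Ccl8 beside little Cd163.

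Against the remaining chosen cells of the same library, genes of the sinus and marginal zone list were higher in 7 of 8 and 6 of 8 cases in the Marco+ Cd209b+ cells, with medians of 1.54 in saline and 1.76 in cold. Perivascular genes were higher in 5 and 4 of 15, with medians of -0.51 and -1.69. The summed list, which holds Ccl8, was nonetheless at 22921 and 29400 CPM, against 25374 and 29805 CPM in the Cd209b+ Marco- cells, and took a median of 1.94% and 2.81% of a cell's UMIs. Of 2364 genes, 64 (2.71%) were at least 2-fold higher in both libraries and 87 (3.68%) lower. Against the perivascular comparison cells, 99 of 3371 genes (2.94%) were higher and 100 (2.97%) lower. These barcodes were also the richest, with a median of 6688 and 8891 UMIs, and 8 of 13 and 6 of 12 held at least 3 UMIs of B cell, T cell, fat progenitor and blood endothelial markers together. In saline, blood endothelial markers alone reached 3 UMIs in 6 cells (113 UMIs, at most 36 in a cell). In cold they did so in 4 cells (20 UMIs), B cell markers in 2 and T cell markers in 1. Of the lists outside this sum, lymphatic endothelial markers reached 3 UMIs in 3 saline cells (37 UMIs), plasmacytoid dendritic cell markers, which include Siglech, in 4 and 8 cells and erythroid markers in 3 and 12. Among the 5 saline and 6 cold cells below 3 UMIs of the 4 summed lists, Timd4 was at 1929 and 2178 CPM in 4 and 5 cells, Vcam1 at 1447 and 610 CPM in 2 cells each and Ccl8 at 3720 and 10757 CPM in all, while Cd163 had no UMI. With so few cells, single ones weigh heavily: 1 cell held 26.1% of the cold Timd4 UMIs of the whole set. The 7 CL cells differed from these, with Saa3 at 9094 CPM in 6 cells, Timd4 at 407 CPM, Vcam1 at 37.0 CPM and no UMI of Spic or Slc40a1.

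Pla2g2d-only cells, 58 in all, held most of the Dnase1l3 and further genes that were low in the Cd209b+ Marco- cells. Dnase1l3 was at 667 and 942 CPM in saline and cold, in 18 of 38 and 5 of 11 cells, against 8.47 and 0 CPM in the Cd209b+ Marco- cells. Il4i1, an amino acid oxidase that restrains T cells, was at 321 and 861 CPM, in 11 and 4 cells. It is on the list of mature dendritic cell markers, which reached 3 UMIs in 8 and 4 cells. Vcam1 was at 698 and 646 CPM, in 17 and 6 cells, so both this set and the Marco+ Cd209b+ set carried it. Fabp5 was at 1056 and 848 CPM, Acp5, the tartrate-resistant acid phosphatase, at 475 and 619 CPM, and Apoe, the lipid carrier apolipoprotein E, at 28806 and 39568 CPM. Apoe was found in all 38 saline cells, whereas Fabp5 and Acp5 were found in 14 and 13 of them. Cxcl9, a chemokine for activated T cells, was at 340 and 1588 CPM, but 1 cell held 70.3% of the cold UMIs. At least 3 UMIs of B cell, T cell, fat progenitor and blood endothelial markers together were found in 6 saline and 2 cold cells. B cell markers alone reached 3 UMIs in 4 and 2 cells.

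Heat shock chaperones were higher in this set than in the remaining chosen cells for 10 of 10 genes in saline and 8 of 9 in cold, with medians of 0.87 and 0.92. Genes of MHC class II were higher in 9 of 9 in saline with a median of 1.02, but in 3 of 8 in cold with a median of -0.45. Perivascular genes were lower in 15 of 15 and 14 of 15, with medians of -1.17 and -1.06. In all, 75 of 2364 genes (3.17%) were at least 2-fold higher in both libraries and 54 (2.28%) lower. Against the perivascular comparison cells, 119 of 3255 (3.66%) were higher and 70 (2.15%) lower. Per cell, the perivascular list took between 0.06% and 3.42% of the UMIs in saline, from almost none to as much as in the Cd209b+ Marco- cells, so this set was itself mixed. The 9 CL cells had no UMI of Il4i1 or Acp5, and the perivascular list took a median of 2.60%.

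Marco-only cells came almost wholly from the CL library and carried inflammatory genes at high levels. Saa3, an acute-phase serum amyloid protein, was at 19814 CPM there, with 4704 UMIs in 51 of 52 cells. Lcn2, the iron-binding lipocalin of inflammation, was at 767 CPM, Timp1, an inhibitor of matrix proteases, at 543 CPM, Sod2, the mitochondrial superoxide dismutase, at 1272 CPM and Isg15, an interferon-induced modifier, at 893 CPM. Cd163 was at 59.0 CPM, Lyve1 at 75.8 CPM and Apoe at 1660 CPM. Against the remaining chosen CL cells, 10 of 10 inflammatory genes and 18 of 19 type I interferon response genes were higher, with medians of 2.04 and 0.97, and 15 of 15 perivascular genes were lower, with a median of -1.48. The summed perivascular list was at 7889 CPM, above the 3749 CPM of the other C1q-positive CL macrophages and below the 26627 CPM of the CL Cd209b+ Marco- cells. Of 2903 genes, 253 (8.72%) were at least 2-fold higher and 171 (5.89%) lower in this 1 library. Against the perivascular comparison cells of CL, 143 of 6826 (2.09%) were higher and 133 (1.95%) lower. Saa3 was also high in other CL macrophages, at 12046 CPM in the perivascular comparison cells. Summed type I interferon genes were at 8567 CPM in the Marco-only cells, below the 10099 CPM of the other C1q-positive CL macrophages. Summed inflammatory genes were at 24173 CPM in the Marco-only cells, against 10401 CPM in those others. In saline, 3 of the 6 Marco-only cells held 217 Saa3 UMIs, and 68.2% of these were in 1 cell.

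**Figure D3:**
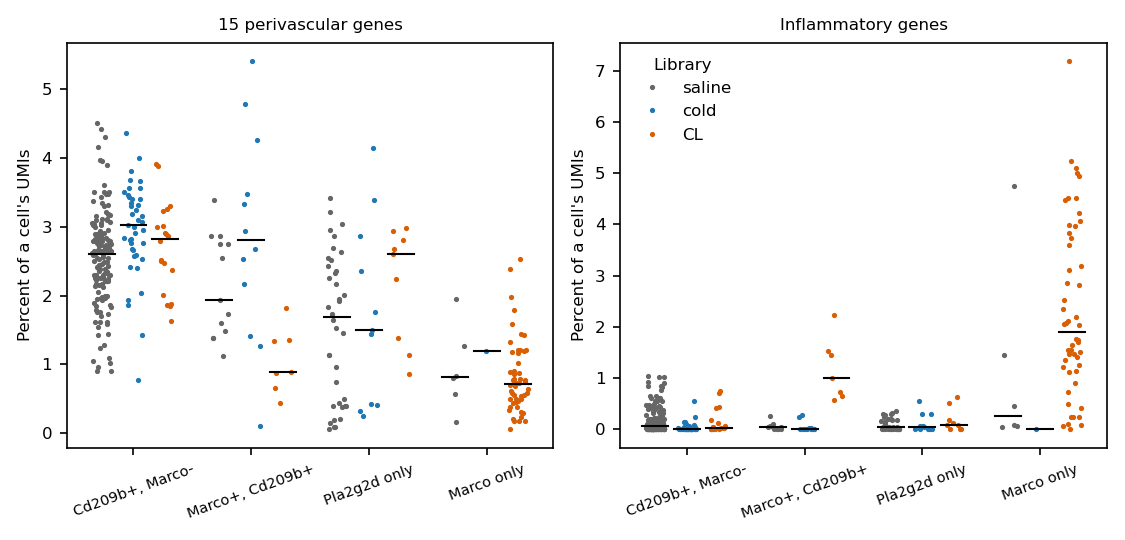
Each point is a cell, with the percent of its UMIs from the 15 perivascular genes (left) and from the inflammatory genes (right), by set and library, and black lines give medians. The perivascular median was 2.60%, 3.03% and 2.83% in Cd209b+ Marco- cells of the saline, cold and CL libraries and 0.716% in CL Marco-only cells, whose inflammatory median of 1.89% was the highest shown.

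Markers of lymph node stroma were at or near 0 in the saline and cold cells. Ccl21a and Madcam1 had no UMI in them, and Ccl19, like Ccl21a a chemokine of the T cell zone, had 0, 2 and 0. Of 7 lymph node stroma markers, 5, 4 and 5 were at 0 in the saline, cold and CL libraries, with summed levels of 31.9, 15.1 and 690 CPM. The CL value came from Cxcl13, the follicular B cell chemokine, at 688 CPM in 20.2% of the cells, against 26.5 and 6.04 CPM in saline and cold. B cell markers summed to 96.9, 93.7 and 10.2 CPM, against 130, 116 and 24.4 CPM in the other C1q-positive macrophages. T cell markers summed to 33.2, 48.3 and 0 CPM. Fat progenitor markers summed to 1217, 438 and 466 CPM, and 8, 2 and 8 cells held at least 3 such UMIs. B cell sums were low in CL in the cells and the others alike, and the part of other cells' RNA in the results was not tested. Clec4f, which marks Kupffer cells of the liver, had no UMI, Siglecf of alveolar macrophages 1, and Gata6 of large peritoneal macrophages 6, 0 and 0. The Kupffer cell list used here also holds Timd4, Vsig4, C6, Cd5l, Slc40a1 and Cdh5. Among these, Timd4, C6 and Slc40a1 were at least 2-fold higher than in the other C1q-positive macrophages in all 3 libraries.

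Between the saline and cold libraries, 375 of 5840 genes (6.42%) differed by at least 2-fold over all the cells, 189 higher (3.24%) and 186 lower (3.18%) in cold. Cd5l was at 314 CPM in cold against 59.7 in saline, a log2 ratio of 2.40 (1.88 to 2.93). Timd4 was at 928 against 307 CPM (1.60, 1.35 to 1.85), Siglech at 281 against 92.9 CPM (1.60, 1.13 to 2.07) and Ccl8 at 6022 against 2740 CPM (1.14, 1.05 to 1.23). All 4 were named above for the Marco+ Cd209b+ set, which made up 18.2% of the cells in cold and 6.22% in saline. Within the Cd209b+ Marco- set the ratios were -1.16 (-4.35 to 0.98) for Cd5l, 0.58 (-0.06 to 1.20) for Timd4, 1.00 (0.10 to 1.87) for Siglech and -0.10 (-0.27 to 0.07) for Ccl8. Of these 4 genes, Siglech alone kept an interval above 0 there. Within the Marco+ Cd209b+ set, with 12 cold and 13 saline cells, all 4 were higher in cold. The ratios were 1.70 (1.10 to 2.35) for Cd5l and 1.06 (0.73 to 1.40) for Timd4. For Siglech and Ccl8 they were 1.12 (0.49 to 1.78) and 1.10 (0.96 to 1.24). Over all the cells, Saa3 went the other way, at 6.04 against 342 CPM, and within the Cd209b+ Marco- set had 0 UMIs against 40 in 6 saline cells.

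Mt2, a metallothionein induced by glucocorticoids and metals, was lower in cold over all cells, at 27.2 against 226 CPM (-3.05, -4.21 to -2.09), and nearly as much within the Cd209b+ Marco- set, at 36.9 against 294 CPM (-3.00, -4.47 to -1.84). In that set 221 of 3892 genes (5.68%) differed by at least 2-fold, 93 higher (2.39%) and 128 lower (3.29%). Glucocorticoid-induced genes were higher in 2 of 11 with a median of -1.09, type I interferon genes in 4 of 14 with a median of -0.65 and inflammatory genes in 0 of 5 with a median of -2.61. Cxcl2, a chemokine for neutrophils, was at 240 against 1463 CPM, and was found in 7 of 41 cold and 83 of 150 saline cells. Cxcl2 was thus lower by level and by the share of cells. Perivascular genes were higher in 11 of 15 with a median of 0.23. In the other C1q-positive macrophages, type I interferon genes summed to 3147 CPM in saline and 925 CPM in cold. Inflammatory genes summed to 4660 and 2057 CPM there, so both lists were lower in cold outside the chosen cells too. Other genes lower in cold over all cells were Cldn5 and Apold1 of endothelium, with no UMI in cold and 44 and 40 in saline. Of the saline Cldn5 UMIs, 41 were in the Marco+ Cd209b+ cells. Fn1, Igfbp5 and Meg3 had 0, 1 and 0 UMIs in cold and 74, 81 and 49 in saline. Of these saline UMIs, 59, 56 and 49 were in the Cd209b+ Marco- cells. Fat progenitor markers had 765 UMIs in that set in saline, 310 of them in 1 cell. In cold they had 142, with 129 in 1 cell.

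CL cells differed more from saline, at 989 of 6015 genes (16.4%), 569 higher (9.46%) and 420 lower (6.98%). Saa3 was at 12738 against 342 CPM (5.22, 5.04 to 5.40), Lcn2 at 502 against 5.31 CPM (6.56, 5.18 to 8.45) and Ccl5, a chemokine for T cells and monocytes, at 1154 against 83.6 CPM (3.79, 3.40 to 4.19). Timp1 had 147 UMIs against 0, a log2 ratio of 6.55 with 3 counts put in place of 0 in saline. The lower bound of its interval was 6.24. Vcam1 was at 28.0 against 309 CPM (-3.46, -4.49 to -2.60), Dnase1l3 at 15.3 against 165 CPM (-3.43, -4.90 to -2.27) and Cd209d at 160 against 684 CPM (-2.09, -2.49 to -1.71). Saa3, Lcn2 and Timp1 were the genes named above for the Marco-only set, which made up 58.4% of the CL and 2.87% of the saline cells. These 3 genes were also higher in the 7 CL Marco+ Cd209b+ cells than in the 13 of saline. Saa3 had 246 UMIs there against 1, Lcn2 11 against 3 and Timp1 7 against 0. In Pla2g2d-only cells Saa3 had 27 UMIs in CL and 0 in saline. Over all the cells, the list median of type I interferon genes was 1.98 (18 of 19 higher). That of inflammatory genes was 1.29 (10 of 11) and that of perivascular genes -0.55 (2 of 15). The first 2 lists were also higher in CL outside the chosen cells. In the other C1q-positive macrophages, type I interferon genes summed to 3147 CPM in saline and 10099 CPM in CL. Inflammatory genes summed to 4660 and 10401 CPM there.

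Within the Cd209b+ Marco- set, with 20 CL and 150 saline cells, 236 of 3567 genes (6.62%) differed, 144 higher (4.04%) and 92 lower (2.58%). Among the lower genes were the fat progenitor markers Dcn, Col1a2, Col3a1, Dpt and Col1a1. Markers of that list had 765 UMIs in the saline cells, 310 of them in 1 cell, and 11 in the CL cells. The perivascular list was even, with 7 of 15 higher and a median of -0.01. Saa3 was at 268 against 84.7 CPM (1.66, 0.87 to 2.43), with 70.8% of the CL UMIs in 1 cell, and Lcn2 had no UMI in either library. Ifi27l2a, an interferon-induced gene, was at 3303 against 1022 CPM, and type I interferon genes were higher in 10 of 12 with a median of 0.78. Cd209d was at 402 against 883 CPM (-1.14, -1.67 to -0.64), and Cd209f, in contrast, at 2355 against 1302 CPM. These 2 lectins of the cluster thus differed in opposite directions. Cxcl13 was at 335 against 12.7 CPM, but all 30 CL UMIs were in 1 cell. Glucocorticoid-induced genes were higher in 2 of 9 with a median of -1.02 and immediate early genes in 1 of 13 with a median of -0.86. Against cold, 805 of 4627 genes (17.4%) differed over all CL cells, with 478 higher (10.3%) and 327 lower (7.07%). Within the Cd209b+ Marco- set 129 of 1730 (7.46%) did, 82 higher (4.74%) and 47 lower (2.72%), and type I interferon genes were higher in CL in 10 of 11 with a median of 1.05.

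**Figure D4:**
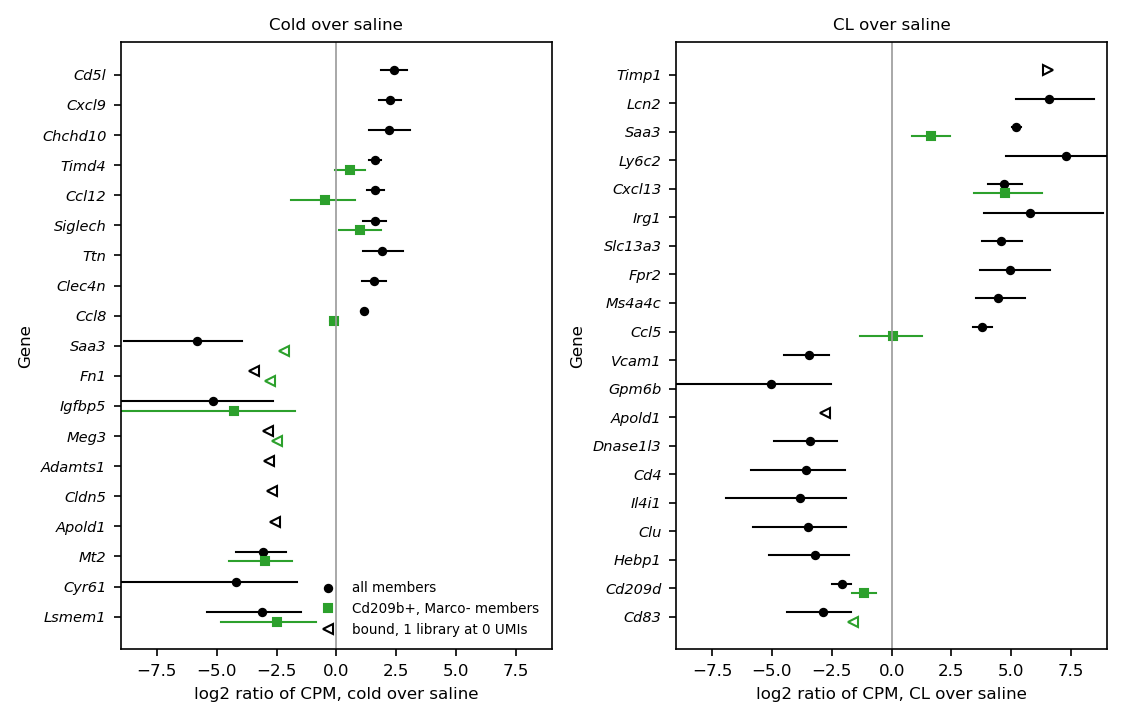
Points give log2 ratios of CPM with exact 95% intervals for counting error, cold over saline (left) and CL over saline (right). Black circles are over all cells chosen by the rule and green squares within the Cd209b+ Marco- set. Open triangles, labelled as bounds, take 3 counts in place of 0 where 1 library had no UMI, and are not interval bounds. Genes under 20 UMIs are left out. Ccl8 was at 1.14 over all cells and at -0.10 within the set for cold, Saa3 at 5.22 and 1.66 for CL, and Mt2 at -3.05 and -3.00 for cold.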

How the data were processed

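Single-cell RNA was measured with 10x Chromium 3′ v3 in 3 libraries, 1 per condition. Per the file headers, the deposited values are raw UMI counts of 28692 genes, made with Cell Ranger 3.0.2, and per the submitters' processing notes the build is mm10. The libraries held 25875379, 19899223 and 29323106 UMIs (saline, cold, CL). The authors' cell calling and annotation are not stated in the sources used here. UMIs were summed over cells and given as CPM, with exact Poisson, Clopper-Pearson and conditional binomial intervals (scipy 1.17.1), while ratios of shares have intervals from a normal approximation. Gene and list ratios treat UMIs as independent, so intervals are too narrow for genes concentrated in few cells. A gene counted as differing at 2-fold or more with an interval excluding 0 and at least 20 UMIs. Doublets were scored with Scrublet in scanpy 1.11.5 and left in, and free RNA was not subtracted. The members and the gene lists were chosen with earlier results of these data known. Named genes were the 25 highest and 15 lowest against other macrophages and the 10 highest and lowest between libraries, by the interval bound nearer to 0, with list members and genes the sets turned on added; some of these are not reported here. List medians took genes with at least 10 UMIs and, as set after seeing the data, at least 3 expected on each side at equal CPM, and a gene at 0 took 3 counts. The interval code was tested on simulated data. RefSeq promoters and GENCODE M21 positions gave sequences and coordinates. Alternatives covered the rule, filters, depth, mixed barcodes, comparison cells and left-out libraries.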

Additional observations from a re-analysis of the deposited data

Results flagged for a closer look

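Lyz1, a lysozyme gene, went in different directions between libraries. Its log2 ratio over the other C1q-positive macrophages was -2.85 in saline and -1.81 in cold but 1.40 in CL. Lyz1 ranked 1 among the genes named as higher in the Marco-only CL cells than in the remaining chosen CL cells. Marco-only cells were 52 of the 89 CL cells, against 6 in saline and 1 in cold. The difference between the libraries was not tested. In CL the gene was found in 19.1% of the cells, against 4.78% in saline and 1.52% in cold, where all 19 UMIs were in 1 cell.

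The UMI rule was also met by 45 barcodes outside the filters on genes and mitochondrial share, 11 in saline, 30 in cold and 4 in CL. They were not part of any comparison.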

How the results depend on the processing

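Shares of kept barcodes in saline, cold and CL moved to 2.14%, 1.29% and 1.04% with at least 3 UMIs of the rule genes, to 0.957%, 0.725% and 0.149% with at least 2 of these genes detected, to 8.18%, 5.57% and 1.72% without barcodes that held B cell, T cell, fat progenitor or endothelial markers, and to 2.75%, 1.25% and 0.926% at 2000 UMIs. They moved to 1.49% in saline and 1.06% in cold with at most 5% mitochondrial UMIs, to 4.03% in saline with at least 1000 genes and, as added after seeing the data, to 0.552% in CL without Marco-only cells. In each case saline stayed above cold and CL, while at 5% mitochondrial UMIs CL, at 1.17%, came above cold. The count of genes differing from other macrophages, 66, became 33 with 2 rule genes, 24 at 5% mitochondrial UMIs, 14 at 2000 UMIs, 35 with at least 50 UMIs and 4 against the perivascular comparison cells, and lay between 88 and 207 with 1 library left out, where fewer libraries had to show the difference. For cold over saline it became 143 at 5% mitochondrial UMIs, 121 at 2000 UMIs, 141 with at least 50 UMIs and 221 in the Cd209b+ Marco- set. For CL over saline it became 293 with 2 rule genes, 599, 472, 545 and 236 under the same settings, and for CL over cold 222, 381, 300, 413 and 129. Marco-positive and Marco-negative cells differed in 42 of 2085 genes (2.01%), and cells split by Pla2g2d in 8.

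Reversals were few. Plac8 in cold turned to 0.23 at 5% mitochondrial UMIs and to 0.81 against the perivascular comparison cells. Against these, the perivascular list (-0.042), Fcna (-0.037), Folr2 (-0.26) and Lyve1 (-0.34) in saline, and Folr2 (-0.086) and the inflammatory list (0.48) in cold also reversed; the comparison cells were chosen on Folr2 and Lyve1. The inflammatory list of CL over saline came to -0.080 within the Cd209b+ Marco- set. In the other cases the cause was not tested. No paired analysis was possible because each group had 1 library. Depth limits the small sets most, since 1 cell can hold most UMIs of a gene.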

Other observations

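Cirbp, a cold-inducible RNA-binding gene, was at 29.2, 75.5 and 15.3 CPM in the saline, cold and CL cells, and at 32.4, 66.9 and 25.5 CPM in the other C1q-positive macrophages. It was found in 28.8% of the cold cells, against 10.0% of the saline and 6.74% of the CL cells. Hpgd, the enzyme that breaks down prostaglandins, was at 151, 323 and 50.9 CPM in the cells and at 55.6, 121 and 14.6 CPM in the others, and so was higher in cold than in saline on both sides.

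Cd4, a T cell coreceptor that some macrophages also carry, was at 245 and 378 CPM in the Marco+ Cd209b+ cells of saline and cold and at 266 and 242 CPM in the Pla2g2d-only cells, against 4.23 and 6.15 CPM in the Cd209b+ Marco- cells. T cell markers were found in 3 of the 13 saline and 3 of the 12 cold Marco+ Cd209b+ cells, while Cd4 was found in 6 and 9. The part of T cell RNA in these values was not tested.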
